A study of Mus musculus with 6 samples.

Results

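The nuclear receptor superfamily was followed in sorted mouse bone marrow cells that lacked Nr4a1 and Nr4a3, 2 of the 3 members of its NR4A branch. Members were the probe sets annotated to a single gene symbol among 46 listed nuclear receptor genes. The array measured 44 of these genes with 115 probe sets, out of 18193 genes with a probe set of their own; Nr1h2 and Nr2e3 had none. The tested cells came from mice with both Nr4a1 and Nr4a3 knocked out (DKO), bred on a C57BL/6 and 129SvJ hybrid background from the single knockouts. They were compared with wild-type (WT) cells, for which the labels give no strain. Both groups were lineage-negative, Sca1-positive (Lin- Sca1+) marrow cells, a sort gate enriched for haematopoietic stem cells, taken at 2 to 3 weeks of age. Each group had 3 Affymetrix arrays, each from a separate RNA pool of 10 to 20 mice, so replicate error here is variation among pools. The comparison asks which receptors have signal in these cells and whether any other receptor changes when Nr4a1 and Nr4a3 are absent.

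Nuclear receptors are transcription factors that bind DNA through a zinc-finger domain, and many are switched by small lipophilic ligands such as steroids, retinoids, thyroid hormone, fatty acids and oxysterols. RXR proteins are the shared dimer partners of the retinoid, thyroid hormone, vitamin D, PPAR and liver X receptors. NR4A proteins are orphan receptors whose ligand pocket is filled by side chains, so their activity follows their abundance. Their genes are immediate early genes, switched on within minutes by cAMP, calcium and growth factor signals through CREB and related factors, and the proteins bind DNA as monomers or as dimers. In blood-forming cells the NR4A branch is known for restraining stem cell proliferation and myeloid leukaemia in mice.

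The promoter windows of the 3 NR4A genes are shown because this branch carries the deletion and one of the receptor falls described below. Sequences are from RefSeq (build GRCm38.p6), run from 250 bases before to 50 bases after the annotated start, and are written 5′ to 3′ on the gene's strand. Capitals mark TGACG, the core of the cAMP response element bound by CREB, which reads CGTCA where it lies on the opposite strand.
Nr4a1, chr15:101266596-101266895, plus strand: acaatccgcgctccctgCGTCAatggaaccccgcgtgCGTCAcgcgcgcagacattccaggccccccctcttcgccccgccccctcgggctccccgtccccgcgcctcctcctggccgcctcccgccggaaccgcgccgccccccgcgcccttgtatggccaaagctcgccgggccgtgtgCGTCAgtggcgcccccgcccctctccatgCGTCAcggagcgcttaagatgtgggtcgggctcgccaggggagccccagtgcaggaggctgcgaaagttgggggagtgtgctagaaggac
Nr4a2, chr2:57123954-57124253, minus strand: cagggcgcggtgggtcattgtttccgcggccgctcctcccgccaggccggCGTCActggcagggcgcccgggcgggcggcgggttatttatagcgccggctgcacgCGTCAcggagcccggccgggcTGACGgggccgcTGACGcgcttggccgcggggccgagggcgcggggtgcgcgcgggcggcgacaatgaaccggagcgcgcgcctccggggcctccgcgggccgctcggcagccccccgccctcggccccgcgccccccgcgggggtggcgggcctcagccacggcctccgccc
Nr4a3, chr4:48045055-48045354, plus strand: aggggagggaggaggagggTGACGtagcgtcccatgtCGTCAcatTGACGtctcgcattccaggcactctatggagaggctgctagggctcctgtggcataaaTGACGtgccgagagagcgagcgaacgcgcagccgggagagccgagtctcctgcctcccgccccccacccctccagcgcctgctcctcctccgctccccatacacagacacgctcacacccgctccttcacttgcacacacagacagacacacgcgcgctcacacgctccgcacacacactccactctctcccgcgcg

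Each of the 3 windows held 4 copies of TGACG. In the table of 32851 mouse promoter windows, 20.8% held at least 1 copy and 76, or 0.231%, held at least 4. The 42 listed receptors with a window in that table had 63 windows, and 17 of these, from 15 receptors, held at least 1 copy. The NR4A genes were the 3 with at least 4, a number chosen after the copies had been counted. The G and C content of the Nr4a1, Nr4a2 and Nr4a3 windows was 72.3%, 81.7% and 64.7%, and its part in these counts was not tested. The full palindrome TGACGTCA, which contains the core, was in none of the 3 windows, against 1.79% of all windows. The monomer site of NR4A proteins, AAAGGTCA, and its shorter form AGGTCA, which it contains, were in none of the 3 either, against 1.51% and 16.3% of all windows. Both Esr1 windows in the table also lacked these 4 motifs, searched on both strands. These are letter matches in a short window and describe no binding.

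Loss of Nr4a1 signal was seen on every DKO array. The single Nr4a1 probe set, 1416505_at, had MAS5 signals of 8.0, 22.4 and 33.8 in DKO replicates 1 to 3, against 1110.5, 1269.4 and 816.3 in WT replicates 1 to 3. MAS5 signal is the array software's linear intensity per probe set, here scaled by the authors to the same trimmed mean on each array. The groups were far apart, and the log2 difference on the log2(signal + 16) scale, DKO minus WT, was -4.89 ± 0.42 (SE), with an adjusted p of 1.95e-04 in limma. The DKO mean was below the limit of the filter on low values, so the size rests on the pseudocount: it was -5.75 with 1 added and -3.72 with 64 added. Nr4a1 encodes Nur77, and this check of the targeted gene went with the labels on all 6 arrays.

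Nr4a3, the other deleted gene, which encodes NOR1, was dim in both groups, and its 3 probe sets were left out by the filter on low values. Probe set 1421079_at had 20.9, 4.0 and 0.6 in DKO arrays, against 40.4, 61.8 and 51.5 in WT arrays, with no overlap. Probe set 1438796_at had 25.9, 6.9 and 24.6 in DKO arrays, against 128.7, 145.4 and 22.6 in WT arrays, where WT replicate 3 lay among the DKO values. Probe set 1421080_at had 60.9, 59.4 and 21.2 in DKO arrays, against 63.7, 44.3 and 50.8 in WT arrays, and the groups overlapped. None of the 3 passed when every probe set was fitted, with adjusted p of 0.197, 0.401 and 0.935. Signals this low give no check of the Nr4a3 deletion. The sources used here do not say whether a probe set of either gene lies in its deleted part.

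Nr4a2, which encodes Nurr1 and was not deleted, was lower in DKO cells at its brightest probe set. Probe set 1455034_at had 869.9, 417.4 and 715.7 in DKO arrays, against 2639.1, 1965.1 and 1378.5 in WT arrays. All DKO values lay below all WT values, with WT replicate 3 the lowest of its group. The difference was -1.57 ± 0.32 (adjusted p = 0.0383), and its 95% interval of -2.27 to -0.87 corresponds to 0.208 to 0.547 of the WT level. The call held without WT replicate 3 (adjusted p = 0.0295) and was lost when any 1 of the other 5 arrays was left out, with adjusted p of 0.0648 to 0.164.

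None of the 5 remaining Nr4a2 probe sets passed. Probe set 1447863_s_at had 570.3, 794.8 and 364.7 in DKO arrays, against 1910.7, 1641.2 and 496.2 in WT arrays. Probe set 1450750_a_at had 309.1, 162.6 and 493.6 in DKO arrays, against 1156.5, 1023.0 and 404.1 in WT arrays. Probe set 1450749_a_at had 413.1, 486.1 and 383.0 in DKO arrays, against 840.1, 828.7 and 356.4 in WT arrays. In each of these 3, WT replicates 1 and 2 stood above every DKO array, while WT replicate 3 lay among the DKO arrays in 1447863_s_at and 1450750_a_at and below all of them in 1450749_a_at. Their differences were -1.06 ± 0.46, -1.37 ± 0.46 and -0.55 ± 0.36, with adjusted p of 0.326, 0.195 and 0.531. The dim probe sets 1433423_at and 1433422_at, with no array above 168.5, were at 0.73 ± 0.63 and 0.54 ± 0.49 and their groups overlapped. The name ending _a_at marks probes shared by transcripts of 1 gene, and _s_at marks probes that may also match other genes.

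**Figure D1:**
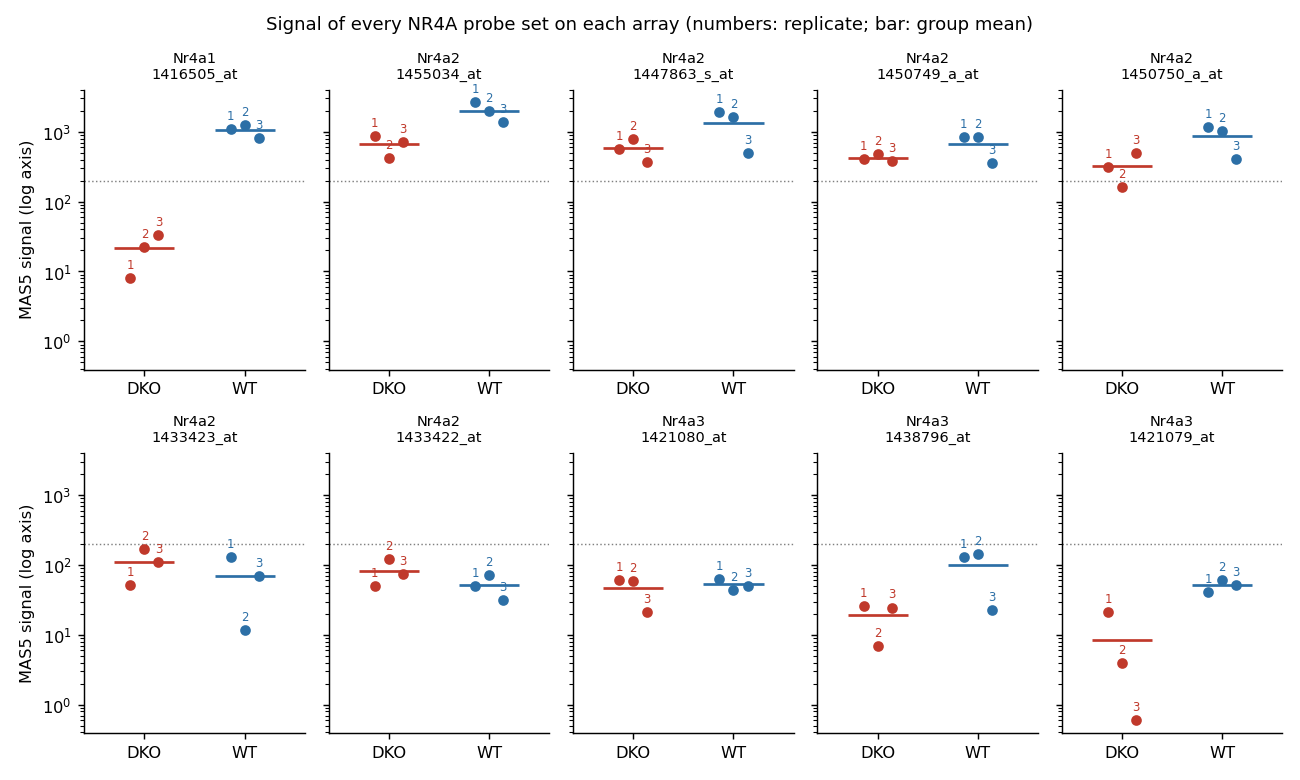
MAS5 signal (log axis) of each of the 10 NR4A probe sets in DKO and WT arrays; points are arrays numbered by replicate, bars are group means and the dotted line is a signal of 200. Nr4a1 lies between 8.0 and 33.8 in DKO and between 816.3 and 1269.4 in WT, and WT replicate 3 is the lowest WT array in all 4 bright Nr4a2 probe sets.

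Immediate early genes, which are induced alongside NR4A genes, were listed beside them. This activity-induced list also held regulators of the cAMP response, such as Creb1, Crtc2 and Crtc3. In all, 22 of 24 tested genes were lower in DKO cells, with a median log2 difference of -0.64 against -0.0078 over all 11529 tested genes, of which 50.8% were lower. Of the 24, 13 had an unadjusted p under 0.05 in limma, which 16.3% of all genes had. At an adjusted p of 0.05, 1 fell and none rose, while 1.71% of all genes passed that threshold. This was Jun, a subunit of the AP-1 transcription factor, with 2589.0, 1929.3 and 1317.3 in DKO arrays, against 6214.3, 6175.4 and 3529.6 in WT arrays (-1.45 ± 0.28, adjusted p = 0.0281). The list's level, averaged over genes after subtracting the 6-array mean of each, was 0.05, -0.63 and -0.27 in DKO replicates 1 to 3, against 0.42, 0.43 and -0.00022 in WT replicates 1 to 3. WT replicate 3 thus had the lowest level of its group in this list as it had in Nr4a2, and DKO replicate 1 lay above it. The call of Jun was lost without DKO replicate 2 or 3 or WT replicate 1 or 2, with adjusted p of 0.0656 to 0.134, and with no filter on low values (adjusted p = 0.0645).

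Outside the NR4A branch, 1 receptor passed the test. Of 46 genes, 18 had a probe set bright enough to be fitted, and 3 of these 18 fell and none rose, against 0.633% of all genes that fell and 1.08% that rose. Without the deleted Nr4a1, 2 of 17 passed, Nr4a2 and Esr1. Of the 18, 12 were lower and 6 higher in DKO cells, with a median difference of -0.24. DKO and WT values were separate in 6 of the 18, and in 22.0% of all genes. Of the 50 fitted member probe sets, 36 were lower in DKO (54.4% of all probe sets), 14 had separate groups (19.8% of all) and 3 fell and none rose (all probe sets: 0.563% fell and 0.807% rose, together 1.37%). Nr4a1 entered the fit through its WT signal and Nr0b2 through its DKO signal, so these counts do not describe all members. Centring each array on its median moved the median of all genes by 0.11, to 0.0996, and that of the 18 receptors to -0.14.

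Among steroid hormone receptors, Esr1 fell in DKO cells. Esr1 encodes oestrogen receptor alpha, through which oestrogen acts on haematopoietic stem cells and early lymphoid progenitors in mice. Its probe set 1435663_at had 254.0, 255.8 and 235.8 in DKO arrays, against 896.7, 631.2 and 774.7 in WT arrays. The DKO arrays were close to each other and all lay below the WT arrays. The difference was -1.55 ± 0.29 (adjusted p = 0.0259), with a 95% interval of -2.20 to -0.91, or 0.218 to 0.533 of the WT level. The second probe set with no overlap, 1421244_at, had 100.3, 175.0 and 33.9 in DKO arrays, against 362.4, 492.3 and 245.7 in WT arrays (-1.83 ± 0.51, adjusted p = 0.118). Probe set 1460591_at had 140.8, 177.0 and 328.4 in DKO arrays, against 469.7, 145.7 and 462.5 in WT arrays, where WT replicate 2 lay among the DKO values (-0.62 ± 0.49, adjusted p = 0.618). The call of Esr1 held without WT replicate 2 (adjusted p = 0.0242) and was lost when any 1 of the other 5 arrays was left out, with adjusted p of 0.0674 to 0.135 and differences of -1.57 to -1.44.

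The glucocorticoid receptor gene Nr3c1 had clear signal in both groups and showed no detectable difference at its brightest probe set. Probe set 1460303_at had 3184.9, 3352.7 and 2472.0 in DKO arrays, against 2840.8, 2293.7 and 3272.4 in WT arrays. The groups overlapped, and the interval of the difference ran from -0.34 to 0.55, or 0.788 to 1.46 of the WT level. Of its 4 other fitted probe sets, 1421867_at and 1421866_at had no overlap between groups, at -0.48 ± 0.26 and -0.53 ± 0.32, but did not pass (adjusted p = 0.429 and 0.481). The remaining steroid receptor genes, Esr2, Nr3c2 for the mineralocorticoid receptor and Pgr for the progesterone receptor, were dim, with no array above 92.9.

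**Figure D2:**
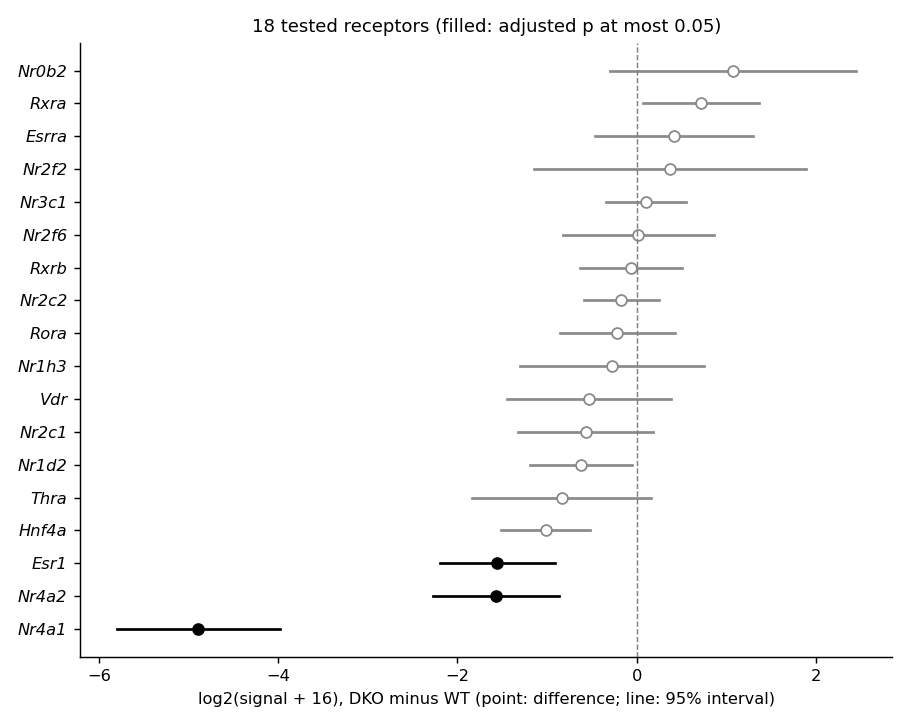
Differences in log2(signal + 16), DKO minus WT, for the brightest probe set of the 18 tested receptors, ordered from higher to lower in DKO; lines are 95% intervals and filled points passed an adjusted p of 0.05. Nr4a1, Nr4a2 and Esr1 are the filled points, at -4.89, -1.57 and -1.55. The intervals of Hnf4a, Nr1d2 and Rxra, at -1.02, -0.62 and 0.72, also exclude 0, although their adjusted p were 0.0562, 0.307 and 0.301.

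Several orphan receptors had bright probe sets. Hnf4a, best known as a liver and gut regulator of metabolism, lay closest to the threshold among those that did not pass. Probe set 1427001_s_at had 1181.4, 1432.5 and 1314.9 in DKO arrays, against 2960.8, 1971.7 and 3216.7 in WT arrays. The groups did not overlap, and the difference was -1.02 ± 0.23 (adjusted p = 0.0562). Without WT replicate 2, the lowest WT array, it was -1.23 and passed (adjusted p = 0.0162). Probe set 1421983_s_at had 430.6, 419.8 and 189.5 in DKO arrays, against 1278.0, 550.1 and 972.7 in WT arrays (-1.39 ± 0.40, adjusted p = 0.125). The other Hnf4a probe sets, 1427000_at and 1450447_at, overlapped between groups at -0.37 ± 0.56 and -0.26 ± 0.68. Both probe sets with separate groups carry the ending _s_at, so other transcripts may contribute to them.

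Nr2c1 and Nr2c2 encode the testicular receptors TR2 and TR4, known in erythroid cells as repressors of embryonic globin genes. Nr2c2 had 3350.5, 3300.7 and 3568.4 in DKO arrays at probe set 1454851_at, against 4229.1, 2961.4 and 4487.6 in WT arrays. The groups overlapped, and the interval of -0.59 to 0.25 was the narrowest of the 18. Its 4 other fitted probe sets were at -0.69 to -0.14. Nr2c1 had 240.4, 354.2 and 193.3 in DKO arrays at probe set 1418605_at, against 350.0, 433.0 and 377.9 in WT arrays (-0.57 ± 0.35, adjusted p = 0.497). Nr2f6, which encodes EAR2, a factor that holds back differentiation of blood cells, had 207.9, 186.8 and 371.1 in DKO arrays and 189.0, 270.5 and 273.2 in WT arrays. Nr2f2, which encodes COUP-TFII of vessels and stroma, varied most within groups, with 167.7, 208.1 and 498.6 in DKO arrays and 44.5, 290.1 and 511.8 in WT arrays. Its interval, -1.15 to 1.89, was the widest of the 18. Nr0b2, which encodes the repressor SHP, was dim, with 85.8, 196.8 and 47.8 in DKO arrays and 7.7, 49.7 and 78.9 in WT arrays (1.08 ± 0.63, adjusted p = 0.471). The groups overlapped at the brightest probe set of all 5 genes in this paragraph. They were separate, and lower in DKO, at the fitted probe sets 1449157_at of Nr2c1 (-0.73 ± 0.37, adjusted p = 0.4002) and 1454167_at of Nr2c2 (-0.69 ± 0.36, adjusted p = 0.411).

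Of the 6 retinoid receptor genes, Rxra and Rxrb had clear signal and neither passed. Rxra, a dimer partner of many other receptors, had 457.1, 551.1 and 563.2 in DKO arrays at probe set 1454773_at, against 318.1, 276.0 and 341.4 in WT arrays. Every DKO value lay above every WT value, which made Rxra the 1 tested receptor higher without overlap. The difference was 0.72 ± 0.30 (adjusted p = 0.301), and a dimmer probe set, 1425762_a_at, was at 0.73 ± 0.44 and also had no overlap. Rxrb had 859.3, 676.1 and 934.3 in DKO arrays, against 945.7, 684.1 and 951.5 in WT arrays, and its interval ran from -0.63 to 0.51. Its sign, negative at -0.06, turned with quantile normalization and with median centring. The retinoic acid receptor genes Rara, Rarb and Rarg and Rxrg were dim, with a highest single value of 117.3. Rarb had 3.6, 17.8 and 39.5 in DKO arrays, against 80.7, 60.3 and 59.8 in WT arrays, and did not pass when every probe set was fitted (adjusted p = 0.368). Rarg, whose protein is known to support self-renewal of mouse stem cells, had 68.6, 96.5 and 65.4 in DKO arrays, against 39.5, 15.7 and 45.1 in WT arrays at its brighter probe set (adjusted p = 0.532), while the second overlapped.

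Clock receptors had clear signal for Nr1d2 and Rora. Nr1d2 encodes REV-ERB beta, a repressor of the circadian clock. It had 763.7, 606.9 and 549.3 in DKO arrays at probe set 1416959_at, against 1161.8, 859.9 and 950.8 in WT arrays. The groups did not overlap, but the difference of -0.62 ± 0.26 did not pass (adjusted p = 0.307). The second probe set, 1416958_at, was at -0.71 ± 0.33 with overlap (adjusted p = 0.359). Rora encodes an activator at the same DNA sites and is known for its role in innate lymphoid cells. It had 450.4, 417.3 and 423.5 in DKO arrays at probe set 1420583_a_at, against 613.9, 401.2 and 512.0 in WT arrays. Of its 9 probe sets, 7 entered the fit with differences of -0.96 to 0.22. At the lowest, 1424035_at, the groups did not overlap, but it did not pass (-0.96 ± 0.42, adjusted p = 0.330). Nr1d1, which encodes REV-ERB alpha, was dim, with 40.3, 53.5 and 7.3 in DKO arrays, against 6.0, 2.4 and 3.2 in WT arrays. Its groups did not overlap, and it did not pass when every probe set was fitted (1.18 ± 0.43, adjusted p = 0.321). Rorb was at or below 30.7 on every array.

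**Figure D3:**
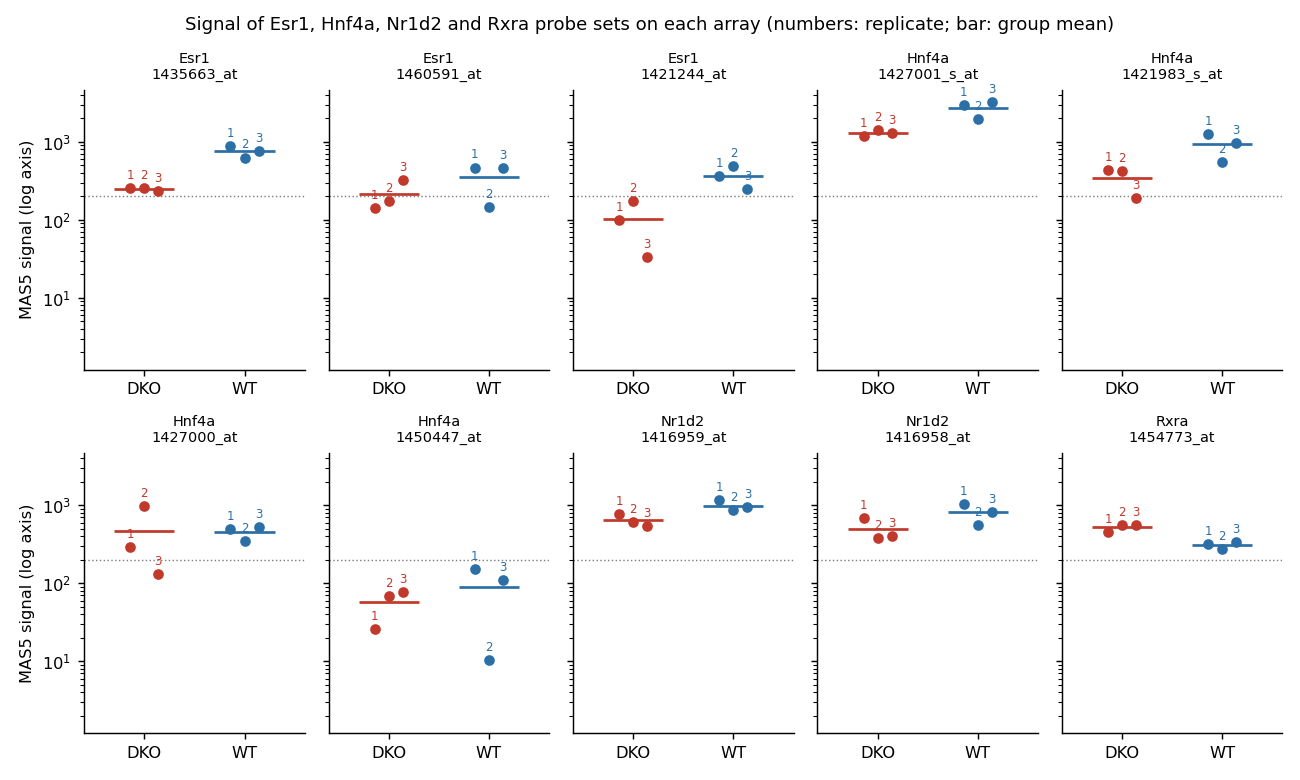
MAS5 signal (log axis) of the fitted probe sets of Esr1, Hnf4a and Nr1d2 and the brightest of Rxra in DKO and WT arrays; points are arrays numbered by replicate, bars are group means and the dotted line is a signal of 200. The DKO arrays of Esr1 probe set 1435663_at lie between 235.8 and 255.8, below all WT arrays, and Rxra is the 1 gene shown whose DKO arrays all lie above its WT arrays.

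Thyroid hormone and vitamin D receptors showed no detectable change. Thra, for thyroid hormone receptor alpha, had 675.3, 1996.0 and 579.4 in DKO arrays at probe set 1443952_at, against 1253.1, 2998.4 and 1218.6 in WT arrays. Replicate 2 was the highest array in both groups, which left a wide interval of -1.83 to 0.16 (adjusted p = 0.435). The 2 other probe sets were at 0.26 ± 0.44 and -0.74 ± 0.52. Vdr, for the vitamin D receptor, had 68.9, 101.1 and 137.6 in DKO arrays, against 123.1, 157.6 and 175.5 in WT arrays (-0.53 ± 0.42, adjusted p = 0.614). Vdr and Rarg lie within 10 Mb of Nr4a1 on chromosome 15 in RefSeq GRCm38.p6, in DNA that a targeted allele can carry along from its strain of origin. No listed receptor lies within 10 Mb of Nr4a3. The part of strain in these values was not tested.

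The lipid, sterol, bile acid and xenobiotic sensors were the dimmest branch. Of 7 measured genes, Nr1h3 alone entered the fit. Nr1h3 encodes liver X receptor alpha, the oxysterol sensor of macrophages, and had 64.3, 85.4 and 53.9 in DKO arrays, against 120.4, 100.5 and 47.0 in WT arrays (-0.27 ± 0.47, adjusted p = 0.852). Ppara, Ppard, Pparg, Nr1h4 for the bile acid receptor FXR, and the xenobiotic sensor genes Nr1i2 and Nr1i3 had no array above 109.5. Esrra, for the oestrogen-related receptor that drives mitochondrial genes, had 347.0, 149.7 and 307.0 in DKO arrays, against 203.7, 157.5 and 198.5 in WT arrays (0.42 ± 0.41, adjusted p = 0.699), while Esrrb and Esrrg stayed at or below 40.6.

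In all, 10 of the 44 measured receptors, or 22.7%, had a probe set at a signal of 200 or more on all 6 arrays, against 38.8% of all genes. They were Nr4a2, Rxra, Rxrb, Thra, Nr1d2, Rora, Hnf4a, Nr2c2, Esr1 and Nr3c1. The threshold describes signal and is no presence call, since detection calls were not used here. Just inside it lay Esr1, with a lowest array of 235.8 at its brightest probe set, and just outside lay Nr2c1, with a lowest array of 193.3. Nr4a1 met the threshold on WT arrays alone. The 26 measured receptors that stayed out of the fit had 52 probe sets, whose highest single signal was 145.4, and 20 of the 26 never reached 100. Over all 65 member probe sets out of the fit, groups did not overlap in 9, with 4 lower and 5 higher in DKO. That is 13.8%, against 11.2% of all probe sets left out by the filter, and none of the 65 passed when every probe set was fitted in limma, with 6 at an unadjusted p under 0.05, or 9.23%, against 6.92% of all probe sets left out. No change in a dim receptor was detected, and the size of change that could be detected at this signal was not measured.

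**Figure D4:**
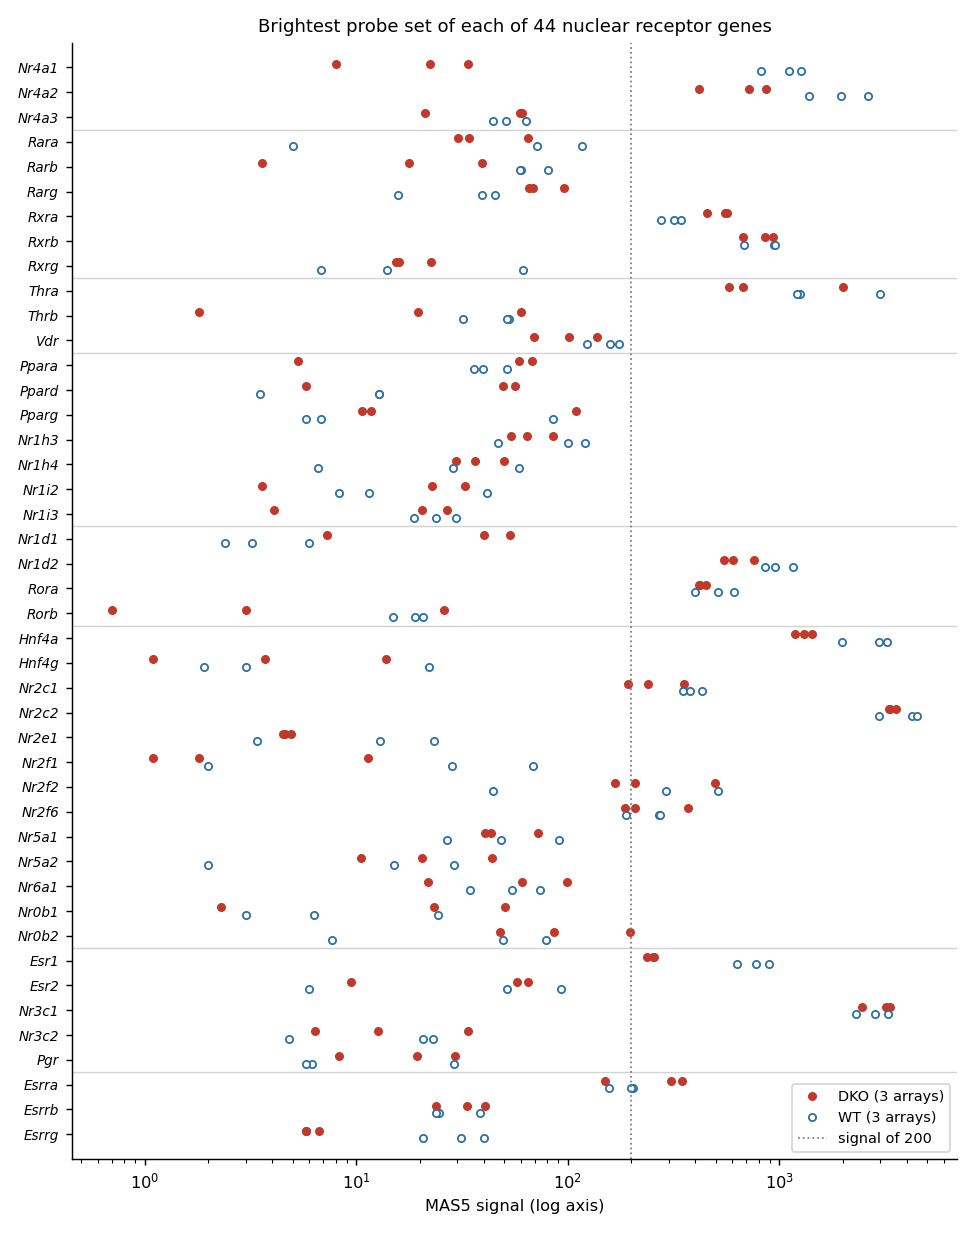
MAS5 signal (log axis) of the brightest probe set of each of 44 nuclear receptor genes on the 6 arrays, DKO above WT within each gene; grey lines separate the branches and the dotted line is a signal of 200. Most receptors lie left of the line on every array, and the Nr4a1, Nr4a2 and Esr1 points of DKO lie left of those of WT.

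Marker genes of the cells in the sort moved between the groups. Kit, a receptor of stem and progenitor cells, had 1967.7, 1826.7 and 1679.2 in DKO arrays, against 2962.7, 2419.0 and 2954.3 in WT arrays. No test value is given here for Kit, and Ly6a, which encodes the sort marker Sca1, was not analysed. Of 12 tested stem cell markers, 11 were lower and 1 was higher in DKO cells, and 6 fell and none rose. Over all tested genes, 0.633% fell and 1.08% rose, which is the share to set beside each marker list. The summed signal of the stem cell markers was 16916 to 20724 in DKO arrays, against 36018 to 43221 in WT arrays. Of 11 tested mast cell, basophil and eosinophil markers, 8 rose and none fell, with a summed signal of 31006 to 38464 in DKO arrays, against 3074 to 14187 in WT arrays. Of 13 tested T cell, NK cell and innate lymphoid markers, 8 rose and none fell, with a summed signal of 11566 to 17709 in DKO arrays, against 1852 to 3482 in WT arrays. Of 7 tested dendritic cell markers, 4 rose and 1 fell, with a summed signal of 8460 to 11807 in DKO arrays, against 3161 to 4538 in WT arrays. Of 8 tested monocyte and macrophage markers, 2 rose and none fell, and their sums overlapped between groups. No marker signal was at 0, and the lowest value in the table was 0.1. The part of these markers in the falls of Nr4a2 and Esr1 was not tested, and in bulk RNA fewer cells of a type and less RNA per cell cannot be told apart. WT replicate 2 stood apart in the neutrophil markers, at a summed signal of 85669, against 37337 and 17357 in the other WT arrays and 29734 to 51873 in DKO arrays. Among the WT arrays it was also highest in the summed erythroid markers, at 62567 against 37033 and 26135. The same held for the B lineage markers, at 9404 against 2688 and 2987. In DKO arrays the sums were 20764 to 24407 for erythroid and 5552 to 13710 for B lineage markers. Of 7 tested erythroid markers, 1 fell and none rose. Of 8 tested B lineage markers, 7 were lower and 1 was higher in DKO cells, and 1 rose and none fell. Most of the B lineage sum in DKO arrays was Jchain. It had 3619.6, 8134.3 and 12066.3 in DKO arrays, against 316.0, 349.2 and 531.0 in WT arrays. Array pairs correlated at 0.927 to 0.944 within DKO, 0.898 to 0.933 within WT and 0.874 to 0.912 between groups, across probe sets.

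Genes around the receptors were read in 10 lists of 171 genes, 122 of them tested. Of these 122, 2 fell and 1 rose, or 2.46%, against 1.71% of all genes. The 3 were Jun, described above, and the clock genes Hlf and Bhlhe40. Among 13 tested genes of the circadian loop that REV-ERB and ROR receptors control, Bhlhe40, which encodes the clock repressor DEC1, rose. It had 2015.5, 1313.9 and 1638.3 in DKO arrays, against 470.6, 519.3 and 294.9 in WT arrays (1.93 ± 0.29, adjusted p = 0.00776). Hlf, an activator of the PAR bZIP family that is also a stem cell factor, fell, with 2367.7, 3629.4 and 4225.1 in DKO arrays, against 8865.6, 7678.0 and 8546.3 in WT arrays (-1.33 ± 0.21, adjusted p = 0.00936). Hlf was also in the list of stem cell markers above, so the same fall is counted in both lists. The call of Hlf was lost without WT replicate 1 (adjusted p = 0.0581). That of Bhlhe40 was lost without DKO replicate 1 or 3 (adjusted p = 0.0646 and 0.0573). The clock list had a median of -0.29, with 8 lower and 5 higher, and a median of -0.10 without WT replicate 2 and -0.18 with quantile normalization. Of its 13 tested genes, 6 had an unadjusted p under 0.05 in limma, against 16.3% of all genes.

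No coregulator, chaperone or ligand supply gene passed the threshold in limma. Among 24 coregulators, 17 were lower, with a median of -0.12 that shrank to -0.01 with median centring, and 7 had an unadjusted p under 0.05, which 16.3% of all genes had. The arginine methyltransferase gene Prmt1, a coactivator, had 3414.0, 3030.1 and 3380.9 in DKO arrays, against 1818.1, 2147.8 and 1670.7 in WT arrays (0.80 ± 0.19, adjusted p = 0.0644). It passed with array quality weights and without WT replicate 2 (adjusted p = 0.0379 and 0.0487). It also passed in the fit on averaged probe sets (adjusted p = 0.0306), where its difference stayed at 0.80, so averaging left its own value unchanged. The coactivator gene Ncoa2 was at -0.53 ± 0.16 (adjusted p = 0.150). Among 12 chaperone genes that hold steroid receptors ready for ligand, 10 were higher, with a median of 0.22 and 2 at an unadjusted p under 0.05. The smallest p in that list were those of the heat shock gene Dnajb1, at -0.36 ± 0.12, and the HSP90 activator gene Ahsa1, at 0.49 ± 0.20 (adjusted p = 0.208 and 0.283). Among 12 genes of ligand supply and clearance, with a median of 0.10 and 3 at an unadjusted p under 0.05, the fatty acid carrier gene Fabp5 was at 0.49 ± 0.16 and the thyroid hormone activating enzyme gene Dio2 at 0.88 ± 0.30 (adjusted p = 0.177 and 0.203).

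No listed target gene of the ligand-bound receptors passed either. Among 14 glucocorticoid receptor targets, 3 had an unadjusted p under 0.05, and the median was 0.0087, with a sign that turned with quantile normalization. Zbtb16, which encodes the zinc finger factor PLZF of innate lymphocytes, had 506.5, 563.2 and 308.0 in DKO arrays, against 61.6, 217.5 and 75.6 in WT arrays (1.96 ± 0.47, adjusted p = 0.0720). It passed with array quality weights and without WT replicate 2 (adjusted p = 0.0271 and 0.0135), and was at 0.88 when its fitted probe sets were averaged (adjusted p = 0.281). The stress gene Ddit4 was at 0.57 ± 0.17 (adjusted p = 0.138). Among 13 PPAR targets, 10 were higher, with a median of 0.47 and 4 at an unadjusted p under 0.05 (16.3% of all genes). The pyruvate dehydrogenase kinase gene Pdk4 had 163.6, 84.3 and 97.0 in DKO arrays, against 38.2, 31.6 and 20.7 in WT arrays (1.48 ± 0.47, adjusted p = 0.164), and the lipid droplet gene Plin2 was at 0.60 ± 0.22 (adjusted p = 0.236). Among 10 liver X receptor targets, 7 were lower, with a median of -0.29, or -0.59 without WT replicate 2, and 3 at an unadjusted p under 0.05. The cholesterol exporter genes Abca1 and Abcg1 were at -1.13 ± 0.40 and -0.61 ± 0.22 (adjusted p = 0.218 and 0.226), and Abca1 overlapped between groups.

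Of 14 listed retinoic acid receptor targets 10 were measured and 2 were bright enough to be tested, Dhrs3 at 0.28 ± 0.33 and Tgm2 at 0.22 ± 0.28. Among 5 tested targets of the thyroid hormone and vitamin D receptors, the antimicrobial peptide gene Camp was at -0.42 ± 0.50 and the cell cycle inhibitor gene Cdkn1a at -0.36 ± 0.26. In both of these lists, 0 members had an unadjusted p under 0.05. The sign of Camp, a neutrophil gene as well, turned to 0.30 without WT replicate 2.

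**Figure D5:**
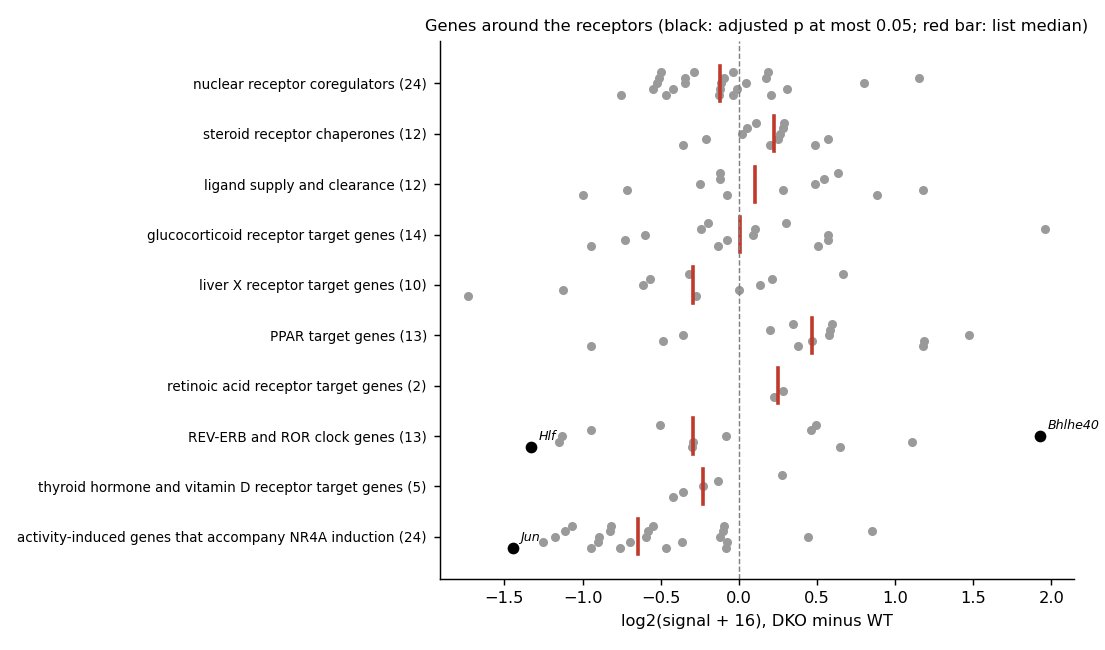
Differences in log2(signal + 16), DKO minus WT, for the tested genes of 10 lists around the receptors, with the number tested in brackets; grey points did not pass an adjusted p of 0.05, black points did and red bars are list medians. Jun, Hlf and Bhlhe40 are the 3 black points, and the median of the activity-induced list is at -0.64.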

How the data were processed

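RNA of 3 DKO and 3 WT pools was labelled with biotin by the standard Affymetrix method, per the labels' protocols. The deposited table holds linear intensity values (MAS5 signals), with 1 column per array; MAS5 is named without a version in the submitters' processing notes. In the deposited values each array's trimmed mean, with 2% left out at each end, was 500, and that scaling was kept. Replicates are separate pools per the labels. The number of arrays limits the precision.

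Of 45101 probe sets, 64 controls were left out. The platform annotation gives 34945 of the rest 1 symbol, 932 several and 9160 none, and no gene was named from several. Signals became log2(signal + 16), which understates changes of dim genes. The 40% with the lowest mean, below a signal of about 53.2, were left out. The other 27022 entered limma (version 3.58.1, R 4.3.3; lmFit, eBayes with an intensity trend), two-sided, with no block and Benjamini-Hochberg adjustment over all 27022. "Rose" and "fell" mean an adjusted p of at most 0.05. Probe sets left out were fitted in a run without the filter. A gene is represented by its brightest probe set (11529 genes). Errors of differences are SE. In the lists, up to 4 members past the threshold, or else the 2 of smallest p, were named. Kit, Jchain and the list totals stand for the markers. The members and lists were chosen with earlier results of these data known. Alternatives were other pseudocounts (1 and 64), filters, scalings, array quality weights, no trend in eBayes, each array dropped in turn and a replicate block. A further alternative averaged the probe sets of a gene that passed the filter. Replicate numbers were not used to pair the arrays in the main fit. Figures used matplotlib 3.10.9.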

Additional observations from a re-analysis of the deposited data

How the results depend on the processing

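Nr4a1 stayed past the threshold in all 15 alternatives that gave a value for its probe set, between -5.75 and -3.72; a filter that left out the lowest 60% removed it. Of the 18 fitted receptors, 3 passed, against 1 with eBayes without a trend and 1 to 3 after dropping 1 array. The 3 that passed without WT replicate 2 were Nr4a1, Esr1 and Hnf4a. Nr4a2 lost its call with no filter on low values (-1.57, adjusted p = 0.0717), with eBayes without a trend (-1.57, adjusted p = 0.160) and with the mean over its probe sets (-0.55, adjusted p = 0.423). With an array left out it lay between -1.81 and -1.27. Esr1 kept its sign in 16 alternatives, between -1.68 and -1.34, and passed in 9. It was lost with eBayes without a trend (adjusted p = 0.0594). Hnf4a passed with array quality weights (adjusted p = 0.0244), under the 60% filter (adjusted p = 0.0452) and without WT replicate 2.

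The same replicate numbers stand in both groups, and the labels state no pairing. Deviations of same-numbered arrays correlated at 0.14, -0.03 and 0.05, and those of other pairs at -0.13 to 0.063. With 3 arrays per group these values cannot decide whether same-numbered arrays share more than a number. With the replicate block 2 of the 18 receptors passed, Nr4a1 and Nr4a2 (-1.57), Esr1 had an adjusted p of 0.0522 at the same difference, and 3 pathway genes passed as before. Not every array correlated best with its own number.

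The median over the fitted receptors, -0.24, was -0.12 with no filter, -0.19 under the 60% filter and -0.14 with median centring, and ranged from -0.42 to -0.17 after dropping 1 array. Pathway genes past the threshold were 3, against 2 with no filter, where Jun was lost, and 0 with eBayes without a trend. They were 7 with array quality weights and 1 to 4 with an array left out. Averaging the fitted probe sets of each gene also gave 7, among them Sesn1, Prmt1 and Fosl2. List medians also moved without WT replicate 2: those of chaperones, ligand supply, glucocorticoid receptor targets and thyroid hormone and vitamin D receptor targets, at 0.22, 0.10, 0.0087 and -0.23, became 0.11, 0.19, 0.13 and 0.097. The cause of these shifts was not tested.

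Signs turned for receptors near 0. Rxrb was at 0.0031 with quantile normalization, 0.048 with median centring, and 0.073, 0.015 and 0.020 without DKO replicate 2, WT replicate 1 and WT replicate 3, over a range of -0.21 to 0.073 with 1 array dropped. Nr2f2 was at -0.076 without DKO replicate 3 and -0.54 without WT replicate 1, and Nr2f6 at -0.27 and -0.15 without the same arrays, with highest values of 1.02 and 0.20 over the arrays dropped. Nr3c1 ranged from -0.034 without WT replicate 2 to 0.24 with 1 array dropped and was at -0.38 with the mean over its fitted probe sets. Camp ranged from -0.98 to 0.30, the last without WT replicate 2. Receptors at 200 or more on all arrays were 10, against 13 at 100, 8 at 400, 15 by the median over arrays and 10 or 11 with an array left out.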
